A study of Mus musculus with 23 samples.

Results

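Dust was compared with saline in lungs of Fat-1 mice, whose transgene is a desaturase from Caenorhabditis elegans that turns omega-6 into omega-3 fatty acids. The lungs were chosen by the genotype letter in their extract code, which gave 11 of the 23 lungs of the series, 6 exposed to dust and 5 to saline. All groups came from mice given 14 instillations, of organic dust extract in the dust groups and of PBS in the saline groups. The Fat-1 groups were 3 female dust, 3 male dust, 2 female saline and 3 male saline lungs, and the 12 WT lungs were 7 dust and 5 saline. Each value came from total RNA of the left lobe of 1 mouse, taken after the airways had been lavaged, so cells washed out by the lavage were not measured. The promoter of the transgene, the strain background and the age of the mice were not given in the sources used here. In the text a lung is named by sex, exposure, extraction day (1 or 2) and number, such as female dust day 1 no 2.

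Organic dust from farm buildings carries bacterial cell wall fragments and endotoxin that airway epithelium and macrophages sense through pattern recognition receptors. Repeated exposure is known to bring neutrophils into the airways, through CXC chemokines that bind Cxcr2, and later macrophages and lymphocytes into the tissue. Omega-6 arachidonic acid is the source of prostaglandins and leukotrienes, whereas omega-3 fatty acids are the source of resolvins, which act through receptors that include Fpr2. A mouse that makes its own omega-3 fatty acids is used to ask how that balance of lipids bears on such inflammation.

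The labels of 3 of the 11 lungs did not agree among themselves. For female saline day 1 no 1, male dust day 1 no 1 and male saline day 2 no 2, the title and characteristics named WT, and the code named Fat-1. For the last of these they also named a female. The panel had no probe for the transgene, so the values could not settle the genotype. A fit without the lungs of conflicting labels called 75 genes, all higher in dust, and one with groups from the characteristics called 165. Separately, 2 dust lungs stood apart on technical measures. In female dust day 1 no 2 the ratio of adjacent positive controls B and C was 1.07, against 2.66 to 3.20 in the other Fat-1 lungs. In male dust day 2 no 1 the binding density was 3.05 and the file carried a saturation message. Genes named in a paragraph whose call was lost without both lungs are given at its end. Those closing lines do not cover the fit without the lungs of conflicting labels. That fit left female saline day 2 no 1 as the only Fat-1 female saline lung. Some calls that those lines leave standing, such as Cxcl2 and Clec5a, did not pass there. The log2 difference of Cxcl2 was 2.32 there, against 2.66 in the main fit, and that of Clec5a 3.06, against 2.74. For the Fat-1 lungs, each extraction day was also a cartridge of its own, and the days split dust and saline lungs unevenly. Recovered counts ran from 110453 to 795975 per lung, and values of 20 mark a floor that stands for low counts. Depth differed by exposure, with 110453 to 401974 counts in saline lungs and 276331 to 795975 in dust lungs. Saline lungs had 112 to 225 genes at the floor and dust lungs 81 to 149. The size of a rise with floor values in saline depends on that floor. Of the markers of lung tissue, the endothelial genes Tek, Cdh5 and Thbd and the macrophage genes Marco, Itgax and Chil3 were above the floor in every Fat-1 lung, while Sftpc, Epcam and Pecam1 were not on the panel.

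Of 691 genes tested, 269 differed between dust and saline (38.9%), 227 of them higher in dust (32.9%) and 42 lower (6.08%). The threshold was an adjusted p under 0.05 by limma on log2(value + 1), with Benjamini-Hochberg adjustment over the 691 genes. At least 2-fold differences were found for 152 of the genes called higher and 11 of those called lower. In 133 genes (19.2%) every dust lung lay above every saline lung, and in 29 genes (4.2%) every dust lung lay below. All 269 called genes had the same sign in females and males, and 268 of them had it on both days. In contrasts that took the spread from all 23 lungs, the response of females called 38 genes (5.5%), that of males 96 (13.9%), that of day 1 236 (34.2%) and that of day 2 65 (9.41%). Fits of the lungs of 1 day alone called fewer, 167 for day 1 and 2 for day 2. A fit of only the 11 Fat-1 lungs called 193 genes higher and 19 lower. The median difference of all genes tested was 0.29 on the log2 scale, and 20 housekeeping genes had a median of 0.05, with 2 called higher. When each lung was centred on its median gene, 152 genes were higher (22%) and 161 lower (23.3%), and the median difference was -0.10. With housekeeping scaling, 190 were higher (27.5%) and 71 lower (10.3%), and with a common floor of 84.26 in every lung 170 (24.6%) and 37 (5.35%). The median difference of all genes tested was 0.16 with housekeeping scaling and 0.11 with the common floor. Of the 269 calls, 194 were kept with median centring, 232 with housekeeping scaling and 202 with the common floor. The main fit had no term for extraction day. A fit with extraction day as a block called 235 genes and kept 232 of the 269. With median centring, Anxa4 and Stat3, named after their values were seen, turned from 0.37 and 0.37 to -0.02 and -0.02. Without both lungs in doubt, 124 genes were higher (17.9%) and 18 lower (2.6%), and 135 of the 269 remained called with the same sign. In bulk tissue, fewer cells of a type and less RNA per cell cannot be told apart, in any result that follows. Counts of called members of a gene list stand beside the 32.9% higher and 6.08% lower of all genes tested.

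**Figure D1:**
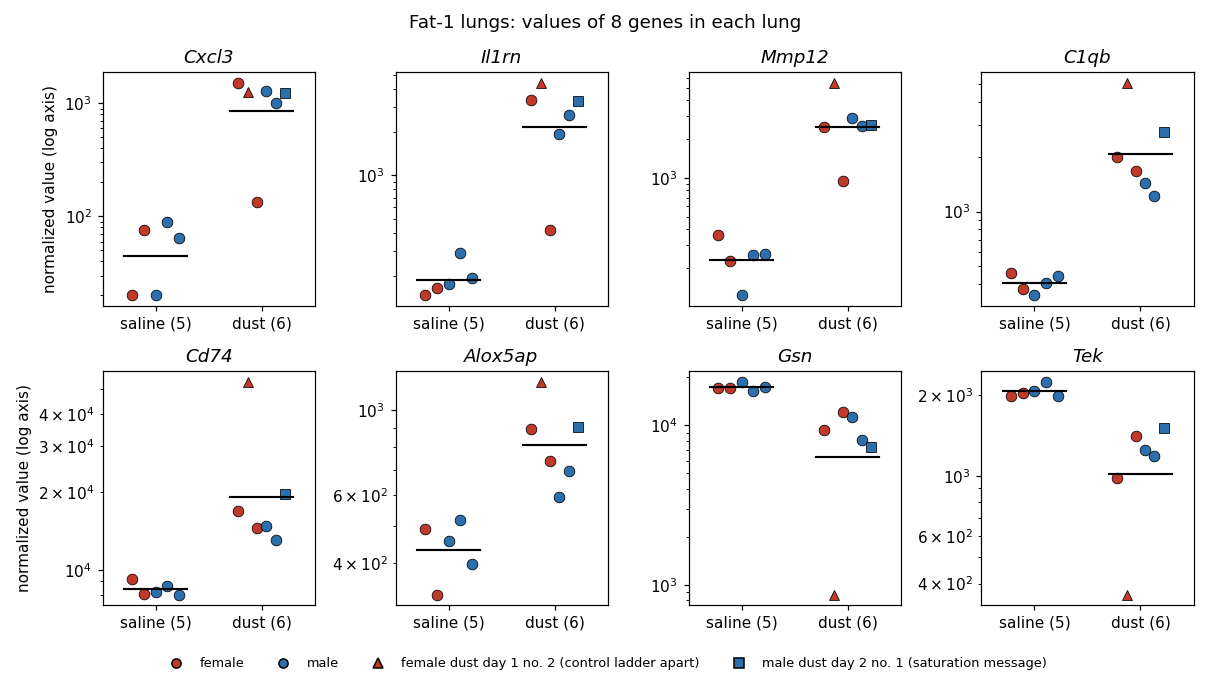
Normalized values of 8 genes in each Fat-1 lung on log axes, with saline lungs on the left and dust lungs on the right of each panel, females in red, males in blue and the geometric mean as a line. Dust lungs sit above all saline lungs for Cxcl3, Il1rn, Mmp12, C1qb, Cd74 and Alox5ap, and below them for Gsn and Tek, with the triangle (female dust day 1 no 2) the lowest for Gsn and Tek.

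Chemokines that draw neutrophils rose, and Cxcl3 had the highest difference of all called genes. Cxcl3, a Cxcr2 ligand, had values of 1529, 1255 and 135 in females and 1279, 999.8 and 1233 in males after dust and 20 and 76.3 in females and 20, 89.4 and 64.4 in males after saline. All 6 dust lungs lay above the saline lungs, although female dust day 2 no 1 was far below the others of its group. The log2 difference was 4.27 ± 0.63 (SE; 6 dust and 5 saline lungs; limma adjusted p = 0.000546), a 19.2-fold rise. With 2 saline lungs at the floor, the difference was 3.33 with the common floor (adjusted p = 0.00171). Cxcl2 ranged from 38.4 to 588 (median 339) in dust and from 20 to 73.1 in saline, with female dust day 2 no 1 inside the saline range, and it rose by 2.66 ± 0.66 (adjusted p = 0.00663). Cxcl1 rose by 2.00 ± 0.63 and Cxcl5 by 2.36 ± 0.44, with adjusted p of 0.0202 and 0.00124 by limma. Of 14 tested neutrophil chemokine and cytokine genes, 12 were higher and none lower, against 32.9% and 6.08% of all genes tested. The median log2 difference was 2.02, against 0.29 over all genes tested. With the common floor 8 of the 14 were higher, with a median of 1.09 against 0.11 over all genes. The exceptions were Csf3, a growth factor for neutrophils, at 0.19 ± 0.32, and Il23a at 0.50 ± 0.29. Without both lungs in doubt, 9 of the 14 were higher. Of the genes named here, the call was lost without both lungs in doubt for Cxcr2 and Cxcl1 (adjusted p from 0.111 to 0.19) and in the fit of only the 11 Fat-1 lungs for Cxcr2 and Cxcl1 (adjusted p from 0.0542 to 0.0703). When each lung was left out in turn, Cxcl1 kept its call in 7 of 11 fits, Cxcr2 in 3, lost most often without female dust day 1 no 2, female saline day 1 no 1, female saline day 2 no 1 or male saline day 1 no 1, and every other called gene named here kept it in all 11.

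The promoters of Cxcl3, Cxcl2, Cxcl1 and Acod1, an enzyme described further below, are shown because each holds a letter string that NF-kappa-B binds. They were picked for the string among the genes called higher, and other chemokines such as Ccl3 rose more than Cxcl1. Each runs over 300 bases and ends 50 bases after the RefSeq start (GRCm38.p6), written 5′ to 3′ along the strand of the gene, which was the plus strand for all 4. Capitals mark GGAATTTCC or its reverse complement GGAAATTCC, which were searched on both strands and which do not overlap in these promoters.
Cxcl3 (chr5:90785851-90786150): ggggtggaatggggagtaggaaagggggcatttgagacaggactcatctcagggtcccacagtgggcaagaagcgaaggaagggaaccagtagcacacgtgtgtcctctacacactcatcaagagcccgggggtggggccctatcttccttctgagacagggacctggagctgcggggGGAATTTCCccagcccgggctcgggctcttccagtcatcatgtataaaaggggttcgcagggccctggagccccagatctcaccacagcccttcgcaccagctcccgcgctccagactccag
Cxcl2 (chr5:90903649-90903948): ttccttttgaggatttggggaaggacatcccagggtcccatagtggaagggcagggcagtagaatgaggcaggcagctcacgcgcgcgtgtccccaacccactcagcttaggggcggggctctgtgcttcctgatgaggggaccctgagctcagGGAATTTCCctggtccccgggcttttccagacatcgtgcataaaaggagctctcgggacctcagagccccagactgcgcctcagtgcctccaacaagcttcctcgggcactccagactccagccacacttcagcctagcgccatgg
Cxcl1 (chr5:90890995-90891294): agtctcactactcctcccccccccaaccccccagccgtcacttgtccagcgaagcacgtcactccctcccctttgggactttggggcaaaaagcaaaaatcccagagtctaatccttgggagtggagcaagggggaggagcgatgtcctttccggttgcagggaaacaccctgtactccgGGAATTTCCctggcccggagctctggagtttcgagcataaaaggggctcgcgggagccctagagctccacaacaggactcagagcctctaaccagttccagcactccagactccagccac
Acod1 (chr14:103046762-103047061): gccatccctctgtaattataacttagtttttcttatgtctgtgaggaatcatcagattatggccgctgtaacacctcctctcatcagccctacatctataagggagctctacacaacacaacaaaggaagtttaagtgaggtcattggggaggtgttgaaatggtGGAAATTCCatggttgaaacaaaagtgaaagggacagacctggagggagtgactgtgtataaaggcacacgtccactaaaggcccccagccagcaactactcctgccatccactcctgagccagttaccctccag
The string began 72 bases before the start in Cxcl3, 96 in Cxcl2 and 70 in Cxcl1, and in Acod1 it began 85 bases before, on the opposite strand. It was in 104 of 32851 promoters of the table (0.317%), and 103 of the 27025 genes there held it (0.381%). Of the 691 genes tested, 526 had a promoter there, and 15 held the string (2.85%). Among the 178 of them called higher it was in 9 (5.06%), namely Cxcl3, Acod1, Cxcl2, Cxcl10, Cxcl1, Tnfaip3, Nfkbia, H2-DMb1 and Icam1, and among the other 348 in 6 (1.72%). The promoters of Cxcl1, Cxcl2 and Cxcl3 lie close together on chromosome 5 and were counted as separate genes. The shares were not tested against each other. This is a description of letters in a window, and binding was not measured.

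Genes of the interleukin 1 system rose together with its natural antagonist. Il1rn, which encodes the receptor antagonist, was 3331, 4432 and 421 in females and 1947, 2636 and 3311 in males after dust and 146 and 165 in females and 177, 289 and 194 in males after saline. No dust lung overlapped the saline lungs, but female dust day 2 no 1 was again the lowest by a wide margin. Il1rn rose by 3.57 ± 0.68 on the log2 scale (11.8-fold, limma adjusted p = 0.00168). Il1b, which encodes the ligand interleukin 1 beta, ranged from 109 to 4293 (median 1159) in dust and from 114 to 219.6 in saline. In female dust day 2 no 1 it was below all saline lungs. Il1b rose by 2.62 ± 0.81 (adjusted p = 0.0185), but not past the threshold without female dust day 1 no 2 (adjusted p = 0.0543). Il1a was higher by 2.31 ± 0.58, the decoy receptor Il1r2 by 1.96 ± 0.53, the signalling receptor Il1r1 by 0.78 ± 0.23 and the inflammasome sensor Nlrp3 by 2.03 ± 0.50. Il18 and Il33 were not called, at -0.35 ± 0.39 and 0.60 ± 0.27. In all, 9 of 14 tested genes of the interleukin 1 family and inflammasome were higher and none lower, with a median of 0.72, and 6 were higher without both lungs in doubt. Calls were lost without both lungs in doubt for Il1b and Il1r2 (adjusted p from 0.0567 to 0.105) and with median centring for Il1r1 (adjusted p = 0.0579). With 1 lung left out at a time, Il1b kept its call in 9 of 11 fits, lost without female dust day 1 no 2 or female saline day 2 no 1, and every other called gene named here kept it in all 11.

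NF-kappa-B carries signals from Toll-like and interleukin 1 receptors to many of these genes, and several of its brakes are themselves its targets. Tnfaip3, which encodes the ubiquitin-editing brake A20, was 1034, 1778 and 303 in females and 757, 804 and 1097 in males after dust and 258 and 285 in females and 244, 248 and 223 in males after saline, without overlap. It rose by 1.74 ± 0.37 (adjusted p = 0.0028). The inhibitors Nfkbie and Nfkbia rose by 1.88 ± 0.48 and 0.85 ± 0.26, and Socs3, a brake on cytokine receptors, by 1.89 ± 0.44. Tnf, an upstream activator, ranged from 76.7 to 1695 (median 205) in dust and from 42.7 to 88.5 in saline and rose by 2.04 ± 0.63 (adjusted p = 0.0189). Dusp1, which encodes a phosphatase that acts on MAP kinases, was not called, at -0.51 ± 0.31. Of 11 tested genes 8 were higher and none lower (median 0.85), but 4 without both lungs in doubt, and 3 were lower after median centring. Among these genes the call was lost without both lungs in doubt for Nfkbia and Tnf (adjusted p from 0.0982 to 0.105), with median centring for Nfkbia (adjusted p = 0.0902) and in the fit of only the 11 Fat-1 lungs for Tnf (adjusted p = 0.0612). Across the 11 leave-one-out fits, Nfkbia and Tnf kept their calls in 10 of 11 fits, lost without female saline day 1 no 1, and every other called gene named here kept it in all 11.

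Genes that mark neutrophils were higher in most dust lungs but varied widely. S100a8, which encodes a subunit of calprotectin, was 9874, 15636 and 491 in females and 2220.2, 2041 and 6823 in males after dust and 688 and 423 in females and 493, 1219 and 749 in males after saline. Female dust day 2 no 1 lay within the saline range and the other 5 dust lungs above it. S100a8 rose by 2.50 ± 0.86 (adjusted p = 0.0295), and its partner S100a9 by 1.99 ± 0.76 (adjusted p = 0.0474). Neither was called without female dust day 1 no 2 (adjusted p of 0.0883 and 0.112 by limma). The receptors Cxcr2 and Csf3r rose by 2.51 ± 0.91 and 2.53 ± 0.74. Cxcr2 likewise was not called without that lung (adjusted p = 0.107), while Csf3r was (0.0434), but not without both lungs in doubt (adjusted p = 0.0915). The surface marker Ly6g and the granule genes Mpo and Camp were not called, with Ly6g above the floor in 2 dust lungs and Mpo in 1. No dust lung overlapped the saline lungs for Itgam, which encodes the CD11b integrin chain shared with macrophages, which rose by 1.99 ± 0.45, or for the NADPH oxidase subunit Cybb at 1.93 ± 0.34. Of 22 tested genes, 14 were higher and none lower (median 1.26), and 7 without both lungs in doubt. The limma call did not hold without both lungs in doubt for S100a8, S100a9, Cxcr2 and Csf3r (adjusted p from 0.0915 to 0.217), with median centring for S100a9 (adjusted p = 0.0579) and in the fit of only the 11 Fat-1 lungs for S100a8, S100a9 and Cxcr2 (adjusted p from 0.0542 to 0.0803). In the fits without 1 lung, Csf3r kept its call in 10 of 11 fits, S100a8 in 5, Cxcr2 in 3 and S100a9 in 1, lost most often without female saline day 2 no 1, and every other called gene named here kept it in all 11.

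Chemokines for monocytes rose. Ccl3, a ligand of Ccr1, was 1425, 3484 and 227 in females and 844, 1022 and 1383 in males in dust and 84.8 and 130.4 in females and 147, 87.4 and 101 in males in saline. Its groups did not overlap, and the log2 difference was 3.28 ± 0.67 (adjusted p = 0.00224). Ccl9 ranged from 1484 to 6647 (median 4007) in dust against 367 to 614 in saline, a rise of 2.71 ± 0.47 (adjusted p = 0.00102). Ccl8 rose by 2.27 ± 0.49, Ccl4 by 2.33 ± 0.54, Ccl2 by 1.64 ± 0.50 and the receptor Ccr1 by 2.26 ± 0.50. Ccl20, which attracts Ccr6-bearing lymphocytes and dendritic cells, was listed at the floor in all 5 saline lungs and at 60.3 to 203 (median 109) in dust, so the size of its fitted difference depends on the floor. With the common floor it was 0.49 (adjusted p = 0.0315). Of 25 CC chemokines and receptors, 14 were higher and none lower, with a median of 1.39, 9 were higher without both lungs in doubt, and Ccl24, Ccl11 and Ccr7 were among the 11 not called. With the common floor 12 of the 25 were higher and the median was 0.65. Of the genes named here, the call was lost without both lungs in doubt for Ccl2 (adjusted p = 0.114) and in the fit of only the 11 Fat-1 lungs for Ccl2 (adjusted p = 0.072). When each lung was left out in turn, Ccl2 kept its call in 10 of 11 fits, lost without female saline day 1 no 1, and every other called gene named here kept it in all 11.

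Markers of tissue macrophages rose as well. Mmp12, a macrophage elastase, was 2464, 5508 and 946 in females and 2913, 2553 and 2597 in males in dust and 358 and 226 in females and 122, 250.0 and 256 in males in saline, so that the lowest dust lung was above every saline lung. It rose by 3.39 ± 0.71 (10.5-fold, adjusted p = 0.00265). Adgre1, which encodes F4/80, was 1041, 2981 and 1317 in females and 919, 919 and 1458 in males against 393 and 329 in females and 329, 451 and 361 in males and rose by 1.83 ± 0.39, and the lysosomal genes Cd68 and Ctsd rose by 1.74 ± 0.35 and 1.15 ± 0.26. Itgax, a marker of alveolar macrophages and dendritic cells, rose by 1.96 ± 0.31 (adjusted p = 0.000803), and Marco, a scavenger receptor of alveolar macrophages, by 1.24 ± 0.31. Pparg, the regulator of the alveolar macrophage state, and its target Fabp4 were not called, at -0.09 ± 0.38 and 0.23 ± 0.22. Chil3, an abundant chitinase-like protein of alveolar macrophages, had values of 21417, 4169.7 and 16684 in females and 21604, 25646 and 36944 in males in dust and 7939 and 7083 in females and 5755, 8913 and 7701 in males in saline. In female dust day 1 no 2 it was below all saline lungs, and the rise of 1.25 ± 0.38 was 1.62 without that lung (adjusted p = 0.00298). Of 13 alveolar macrophage genes 10 were higher (median 0.94), and of 21 monocyte and interstitial macrophage genes 14 (median 1.42), with none lower in either list. Of the latter, 11 of 21 had every dust lung above every saline lung, against 19.2% of all genes tested, and Cd163, Mertk and Cx3cr1 were not called. Calls were lost with median centring for Chil3 (adjusted p = 0.0613). With 1 lung left out at a time, Chil3 kept its call in 10 of 11 fits, lost without female saline day 2 no 1, and every other called gene named here kept it in all 11.

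Complement genes rose in all 8 cases. C1qb, a subunit of the first component, was 1999, 5127 and 1668 in females and 1440.1, 1223 and 2733 in males in dust and 460.4 and 377 in females and 345, 406 and 441 in males in saline, and rose by 2.36 ± 0.42 (5.13-fold, adjusted p = 0.00102). C1qa and C1qc rose by 1.94 ± 0.32 and 2.06 ± 0.38, and C3, the central component, by 1.68 ± 0.29, from a saline range of 3869.9 to 5229 to a dust range of 8774 to 27247 (median 13683). The receptors C3ar1 and C5ar1 rose by 2.36 ± 0.52 and 1.35 ± 0.44. In 7 of the 8 genes every dust lung was above the saline lungs (19.2% of all genes), and 7 were higher without both lungs in doubt. Pattern recognition receptors gave 13 higher and none lower of 19 (median 1.00), but 10 higher and 3 lower after median centring and 12 and 1 with housekeeping scaling. Clec5a, a myeloid lectin, rose by 2.74 ± 0.68, Clec7a, the beta-glucan receptor dectin-1, by 1.94 ± 0.42, and Tlr2, the receptor for bacterial lipopeptides, by 1.75 ± 0.30 (adjusted p = 0.00102). Tlr4, the endotoxin receptor, rose by 0.71 ± 0.16. Tlr3 and Tlr5 were not called, at -0.54 ± 0.26 and -0.65 ± 0.28. Of these 19 genes 7 were higher without both lungs in doubt. Among these genes the call was lost without both lungs in doubt for C5ar1 (adjusted p = 0.145) and with median centring for Tlr4 (adjusted p = 0.0861). Across the 11 leave-one-out fits, C5ar1 kept its call in 8 of 11 fits, lost without female dust day 1 no 2, female saline day 2 no 1 or male dust day 2 no 1, and every other called gene named here kept it in all 11.

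**Figure D2:**
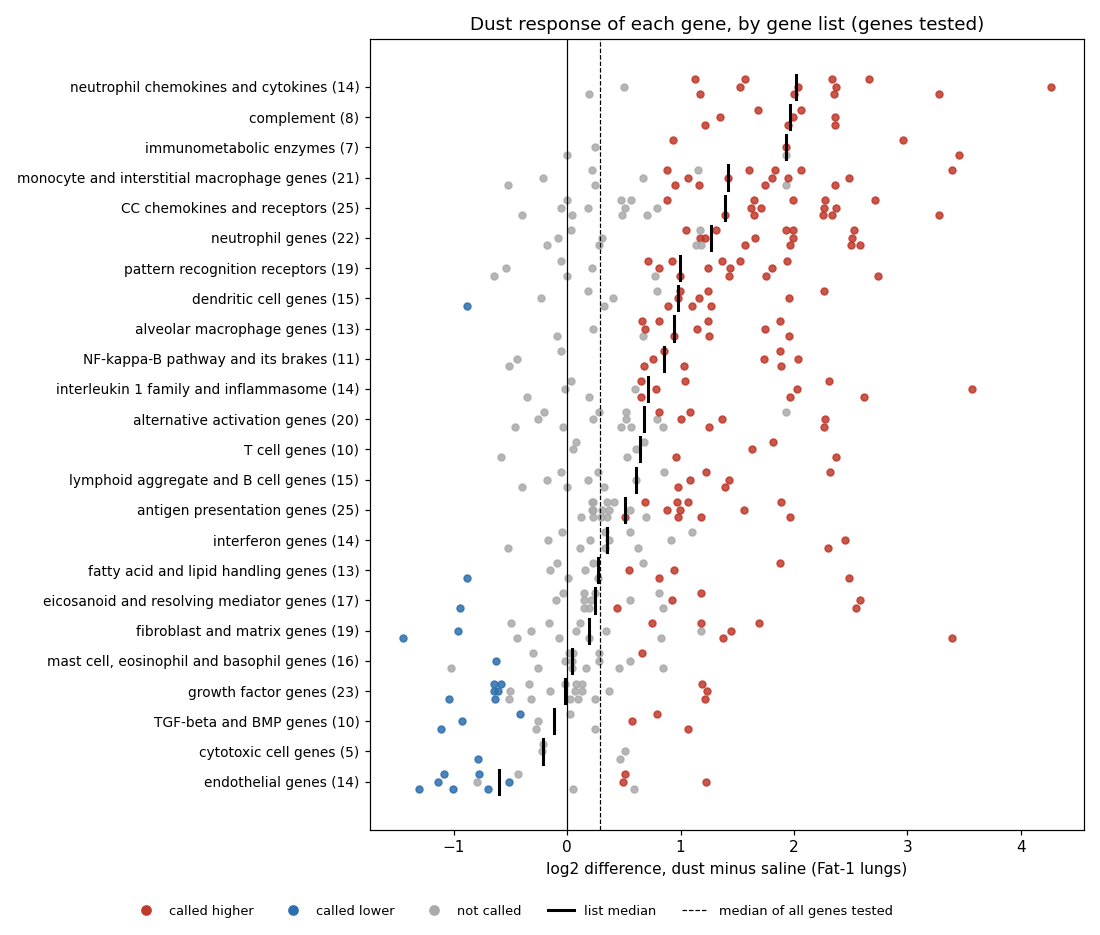
Log2 differences between dust and saline for each tested gene, grouped by list, with genes called higher in red, lower in blue and not called in grey. Black ticks mark the list medians, from 2.02 for neutrophil chemokines and cytokines to -0.60 for endothelial genes, and the dashed line the median of all genes tested (0.29).

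Of 17 genes that make, break down or sense lipid mediators, 5 were higher and 1 lower, shares near the 32.9% and 6.08% of all genes tested. Fpr2, a receptor shared by formyl peptides, lipoxins and resolvins, was 1716, 4068 and 705 in females and 1047, 1072 and 1427 in males in dust and 222 and 240.1 in females and 211, 315 and 209 in males in saline. No lung overlapped, and Fpr2 rose by 2.58 ± 0.39 (5.97-fold, adjusted p = 0.000687) and by 2.19 without both lungs in doubt. Ptafr, the receptor of platelet-activating factor, was 832, 756 and 160.4 in females and 418, 461 and 861 in males against 88.6 and 79.5 in females and 92.7, 79.2 and 93.5 in males and rose by 2.54 ± 0.54 (adjusted p = 0.0028). Alox5ap, the partner protein that presents arachidonic acid to 5-lipoxygenase, rose from 491 and 331 in females and 455, 518 and 398 in males in saline to 895, 1187 and 737 in females and 594, 694 and 902 in males in dust, a difference of 0.93 ± 0.26 (adjusted p = 0.0127). Alox5, the lipoxygenase itself, was not called, at 0.15 ± 0.24. Ptgs1, the constitutive cyclooxygenase, rose by 0.44 ± 0.13. Its call was lost with housekeeping scaling (0.31, adjusted p = 0.107) and with median centring (0.05, adjusted p = 0.854). Ptgs2, the inducible one, was 159 to 356 (median 239.9) in dust and 179.8 to 308 in saline, at 0.15 ± 0.21, and was not called. The prostaglandin E2 receptor Ptger2 rose by 1.18 ± 0.34. Hpgd, which inactivates prostaglandin E2 and also oxidises resolvins, was 8711, 2168 and 6409 in females and 6367, 6027 and 6925 in males in dust and 12006 and 12708 in females and 9501, 8945 and 10331 in males in saline. All 6 dust lungs were below the saline lungs, and the difference was -0.95 ± 0.34 (adjusted p = 0.0346). Without female dust day 1 no 2 it was -0.65 and no longer past the threshold (adjusted p = 0.0906), nor was it without both lungs in doubt (0.116) or with the common floor (0.0509). Alox15, which starts the synthesis of several resolving mediators, was at 0.85 ± 0.43 with floor values in 4 lungs, and was not called. The median of the 17 genes was 0.25, near that of all genes, 3 were higher and 0 lower without both lungs in doubt, and 4 were higher and 2 lower after median centring. The limma call did not hold without both lungs in doubt for Alox5ap, Ptger2 and Hpgd (adjusted p from 0.0744 to 0.116), with median centring for Ptgs1 (adjusted p = 0.854) and in the fit of only the 11 Fat-1 lungs for Ptger2 and Hpgd (adjusted p from 0.0564 to 0.0674). In the fits without 1 lung, Alox5ap, Ptgs1 and Ptger2 kept their calls in 10 of 11 fits, Hpgd in 3, lost most often without female saline day 1 no 1, and every other called gene named here kept it in all 11.

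Among genes that take up and process fatty acids, Olr1, a receptor for oxidised lipoprotein, was 781, 1649.9 and 517 in females and 619, 816 and 860.0 in males in dust and 219.6 and 176 in females and 240.2, 291 and 216 in males in saline. Its groups did not overlap and it rose by 1.88 ± 0.33 (3.68-fold, adjusted p = 0.00102). Trem2, a lipid-sensing receptor of macrophages, rose by 2.49 ± 0.58, with female dust day 1 no 2 at 1383 and the other dust lungs from 167 to 282. Lpl, which frees fatty acids from lipoproteins, rose by 0.94 ± 0.27, and Lipa, the lysosomal lipase, by 0.54 ± 0.18. Elovl6, an elongase of saturated fatty acids, rose by 0.81 ± 0.30 but by 0.19 with a common floor (adjusted p = 0.102). Cd36, a fatty acid transporter of endothelium and macrophages, was 6323, 1815 and 6542 in females and 7387, 6845 and 6447 in males in dust and 10707 and 9759 in females and 9686, 10051 and 9338 in males in saline. Every dust lung was lower, and Cd36 fell with a difference of -0.89 ± 0.27 (adjusted p = 0.0189), or -0.56 without both lungs in doubt (adjusted p = 0.0471). The synthesis genes Fasn and Acly were not called, at 0.01 ± 0.25 and -0.15 ± 0.12. Of 13 genes 5 were higher and 1 lower, against 32.9% and 6.08% of all genes, with a median of 0.27. Without both lungs in doubt 2 were higher and 1 lower, and after median centring 3 and 2. Of the genes named here, the call was lost without both lungs in doubt for Lpl, Lipa and Elovl6 (adjusted p from 0.0529 to 0.146), with median centring for Lipa and Elovl6 (adjusted p from 0.203 to 0.528) and in the fit of only the 11 Fat-1 lungs for Elovl6 and Cd36 (adjusted p from 0.0674 to 0.139). When each lung was left out in turn, Cd36 kept its call in 9 of 11 fits, Lipa in 7 and Elovl6 in 4, lost most often without female saline day 1 no 1 or female saline day 2 no 1, and every other called gene named here kept it in all 11.

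Il4i1 and Acod1, enzymes that shape macrophage metabolism, were among the genes with the highest differences, with many of their saline values at the floor. Il4i1, a secreted amino acid oxidase, was 591, 1021 and 51.1 in females and 238, 347 and 314 in males in dust and 20 and 44.5 in females and 20, 20 and 35.2 in males in saline, where 20 is the floor, and rose by 3.46 ± 0.68 (adjusted p = 0.00194). With the common floor Il4i1 rose by 1.96 (limma adjusted p = 0.0204). Acod1, which makes itaconate, was at the floor in all 5 saline lungs and was 385, 347 and 26.7 in females and 139, 213 and 168 in males in dust. Its fitted difference was 2.96 ± 0.63 (adjusted p = 0.00295), and with the common floor it was 1.21 and not called (adjusted p = 0.0602). Arg1 was 277, 1508 and 54.6 in females and 277, 231 and 722 in males in dust and 71.3 and 73.1 in females and 126, 112 and 63.2 in males in saline, was 1.93 ± 0.93 and was not called (adjusted p = 0.105). Nos2 and Ido1 were not called. Of 7 immunometabolic enzyme genes, 4 were higher and none lower, against 32.9% and 6.08% of all genes tested. The list median was 1.93. With the common floor 3 of the 7 were higher and the median was 1.21.

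The class II chains and their invariant chain rose without overlap between the groups. Cd74, the invariant chain, was 16886, 53402 and 14438 in females and 14743, 13029.8 and 19717 in males in dust and 9203 and 8047 in females and 8219.9, 8653 and 8004 in males in saline. The dust lungs did not overlap the saline lungs, and Cd74 rose by 1.18 ± 0.29 (adjusted p = 0.00663), or 0.80 without both lungs in doubt. H2-Aa, H2-Ab1 and H2-Eb1, the class II chains, rose by 1.06 ± 0.28, 0.98 ± 0.23 and 0.88 ± 0.25, and Ctss, which trims the invariant chain, by 1.97 ± 0.34. The checkpoint ligand Cd274 rose by 1.88 ± 0.48 and the costimulator Cd86 by 1.56 ± 0.37. Of 25 antigen presentation genes 11 were higher and none lower, against 32.9% and 6.08% of all genes tested. The list median was 0.51, against 0.29 over all genes, and 8 were higher and none lower after median centring. Class I genes such as H2-D1 and Tap2 were not called, at 0.35 ± 0.16 and 0.30 ± 0.14, while H2-K1 rose by 0.51 ± 0.19. Of 15 dendritic cell genes 9 were higher, among them Flt3 at 1.24 ± 0.32, and Dpp4 was the 1 lower, at -0.89 ± 0.31, while 4 were higher without both lungs in doubt. Calls were lost without both lungs in doubt for H2-K1 and Dpp4 (adjusted p from 0.0597 to 0.172), with median centring for H2-Eb1 and H2-K1 (adjusted p from 0.0759 to 0.515) and in the fit of only the 11 Fat-1 lungs for Dpp4 (adjusted p = 0.112). With 1 lung left out at a time, Flt3 kept its call in 10 of 11 fits, Dpp4 in 5 and H2-K1 in 1, lost most often without female saline day 2 no 1, and every other called gene named here kept it in all 11.

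Genes of lymphocytes and their niches changed in part. Cxcl13, which organises B cell follicles, was 713, 317 and 286 in females and 447, 405 and 718 in males in dust and 82.8 and 60.4 in females and 143, 102 and 102 in males in saline. All dust lungs were higher, and it rose by 2.31 ± 0.46 (4.97-fold, adjusted p = 0.00194). Ccl19, which guides naive T cells, rose by 1.39 ± 0.51, whereas its partner Ccl21a was at -0.05 ± 0.21 and the B cell marker Ms4a1 at -0.18 ± 0.34, and neither was called. Of 15 lymphoid genes 6 were higher and none lower, against 32.9% higher over all genes, with 3 higher without both lungs in doubt, 2 with a common floor and 4 higher and 2 lower after median centring. The checkpoint receptors Ctla4 and Havcr2 rose by 2.37 ± 0.58 and 1.63 ± 0.42, the costimulator Icos by 1.82 ± 0.44, and Lag3 by 0.96 ± 0.36. These were the 4 higher of 10 T cell genes, against 32.9% higher over all genes. Of the 10, 0 were called with a common floor, against 4 with the floor as deposited, and after median centring 3 were higher and 1 lower. Of 5 cytotoxic cell genes, Gzma was lower at -0.79 ± 0.24 and the others were not called. Interferon genes gave 2 higher of 14, against 32.9% higher over all genes: Cxcl9 and Cxcl10, at 2.45 ± 0.93 and 2.30 ± 0.72. Neither was called without both lungs in doubt, 1 gene of the list was higher and 3 lower after median centring, and Mx1 and Irf1 were not called. Of 20 genes of alternative activation 7 were higher, a share near the 32.9% of all genes, among them Chil4 at 1.37 ± 0.28 and Ccl17 at 2.26 ± 0.58. Of these 20, 4 were higher without both lungs in doubt, and 5 were higher and 1 lower after median centring. Il4, Il13 and Retnla were not called. Mast cell, eosinophil and basophil genes gave 1 higher and 1 lower of 16, against 32.9% and 6.08% of all genes. The higher was Siglecf, also a marker of alveolar macrophages, at 0.66 ± 0.22, and the lower was Kitl at -0.63 ± 0.18. After median centring 0 of the 16 were higher and 4 lower. Among these genes the call was lost without both lungs in doubt for Ccl19, Lag3, Gzma, Cxcl9, Cxcl10, Ccl17 and Siglecf (adjusted p from 0.0539 to 0.224), with median centring for Ccl19, Lag3, Cxcl9 and Siglecf (adjusted p from 0.0537 to 0.35) and in the fit of only the 11 Fat-1 lungs for Ccl19, Lag3 and Cxcl9 (adjusted p from 0.0612 to 0.118). Across the 11 leave-one-out fits, Havcr2, Gzma and Kitl kept their calls in 10 of 11 fits, Cxcl10 in 9, Siglecf in 8, Ccl19 and Lag3 in 3 and Cxcl9 in 1, lost most often without female saline day 1 no 1, and every other called gene named here kept it in all 11.

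Of 19 matrix genes 6 were higher and 2 lower, against 32.9% and 6.08% of all genes tested. Col3a1, a fibrillar collagen, was 7178, 6557 and 3552 in females and 3284, 3072 and 6854 in males in dust and 2217 and 1563 in females and 1652, 1833 and 1450.1 in males in saline, without overlap, and rose by 1.45 ± 0.35 (adjusted p = 0.00614). Fn1 rose by 1.18 ± 0.24, Tnc by 1.69 ± 0.47 and Mmp19 by 1.37 ± 0.25, while Col1a2, a chain of type I collagen, was at 0.83 ± 0.35 and was not called. The 2 lower were Gsn and Col17a1. Without both lungs in doubt 4 genes were higher and 0 lower, and after median centring 5 were higher and 6 lower. Col17a1 was at the floor in 5 dust lungs and 2 saline lungs, and was not called with a common floor (adjusted p = 0.371). Within 10 transforming growth factor and bone morphogenetic protein genes, 3 were higher and 3 lower, or 1 and 5 after median centring. The share higher was near the 32.9% of all genes, and 6.08% of all genes were lower. Tgfb1 rose by 0.79 ± 0.20, while Bmp6 and the co-receptor Tgfbr3 fell. Bmp6 was 434, 248 and 499 in females and 693, 566 and 667 in males in dust and 880.4 and 1051 in females and 1053, 916 and 792 in males in saline, with every dust lung lower and a difference of -0.93 ± 0.24 (adjusted p = 0.00779). Igf1, a growth factor made by macrophages among others, rose by 1.22 ± 0.28. Fibroblast receptors Pdgfra and Pdgfrb were not called, at -0.32 ± 0.20 and -0.16 ± 0.15. The limma call did not hold without both lungs in doubt for Tnc, Gsn and Col17a1 (adjusted p from 0.0644 to 0.134) and in the fit of only the 11 Fat-1 lungs for Gsn, Col17a1 and Tgfbr3 (adjusted p from 0.0618 to 0.11). In the fits without 1 lung, Tgfbr3 kept its call in 9 of 11 fits, Gsn in 5 and Col17a1 in 4, lost most often without female saline day 1 no 1, and every other called gene named here kept it in all 11.

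Several genes of the vessel wall fell, and most of these calls depended on which lungs were fitted. Tek, the angiopoietin receptor that keeps endothelium quiescent, was 982, 364 and 1408 in females and 1252, 1189.8 and 1500.5 in males in dust and 1984 and 2027 in females and 2060.3, 2235 and 1986 in males in saline. Every dust lung was below every saline lung, and the difference was -1.01 ± 0.28 (adjusted p = 0.0123), or -0.77 without both lungs in doubt (adjusted p = 0.0316). Angpt1, its activating ligand, fell with a difference of -1.08 ± 0.32, and Thbd, which encodes thrombomodulin, with -1.14 ± 0.37. Vegfa, the endothelial growth factor made by epithelium among others, was 2891, 638 and 3734 in females and 3321, 3146 and 2657 in males in dust and 4556 and 5593 in females and 5132, 3894 and 5720.4 in males in saline, a difference of -1.04 ± 0.34. Of 14 endothelial genes 7 were lower and 3 higher, with a median of -0.60 against 0.29 over all genes. The 3 higher were adhesion molecules that bind leukocytes, Vcam1 at 0.49 ± 0.18, Icam1 at 0.51 ± 0.18 and Selp at 1.22 ± 0.43. Without both lungs in doubt 3 of the 14 were lower and 0 higher. After median centring 9 were lower and 0 higher, and with housekeeping scaling 8 and 1. Falls of any gene went from 42 to 19 in the fit of only the 11 Fat-1 lungs, where Tek was called (adjusted p = 0.0403) and Thbd and Vegfa were not (0.0674 and 0.0953). Without the lungs of conflicting labels no fall was called, Tek included (adjusted p = 0.099). Of the genes named here, the call was lost without both lungs in doubt for Angpt1, Thbd, Vegfa, Vcam1, Icam1 and Selp (adjusted p from 0.0527 to 0.162), with median centring for Vcam1, Icam1 and Selp (adjusted p from 0.0824 to 0.614) and in the fit of only the 11 Fat-1 lungs for Thbd, Vegfa, Vcam1, Icam1 and Selp (adjusted p from 0.0565 to 0.0953). When each lung was left out in turn, Angpt1 kept its call in 10 of 11 fits, Vegfa in 9, Thbd in 8, Icam1 and Selp in 5 and Vcam1 in 3, lost most often without female saline day 1 no 1 or female saline day 2 no 1, and every other called gene named here kept it in all 11.

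The falls were not equal across lungs. Gsn, which encodes the actin-severing protein gelsolin, had the lowest difference, with values of 9295, 868 and 12130.3 in females and 11279, 8093 and 7299.7 in males in dust and 17178 and 17241 in females and 18808, 16336 and 17422 in males in saline. Female dust day 2 no 1 was the dust lung nearest to saline and female dust day 1 no 2 the farthest. The difference of -1.45 ± 0.51 became -0.85 without that lung (adjusted p = 0.0429) and -0.79 without both (adjusted p = 0.091). Tspan7, a tetraspanin, went from -1.31 ± 0.49 to -0.71, and Sptbn1, a spectrin, from -1.05 ± 0.39 to -0.58. In that lung the mean of the endothelial list was -1.07 on the log2 scale relative to the saline mean, against -0.10 to -0.36 in the other dust lungs. The part of the control ladder in these values was not tested. Calls were lost without both lungs in doubt for Gsn, Tspan7 and Sptbn1 (adjusted p from 0.0662 to 0.091) and in the fit of only the 11 Fat-1 lungs for Gsn, Tspan7 and Sptbn1 (adjusted p from 0.11 to 0.136). With 1 lung left out at a time, Gsn kept its call in 5 of 11 fits, Tspan7 and Sptbn1 in 3.

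**Figure D3:**
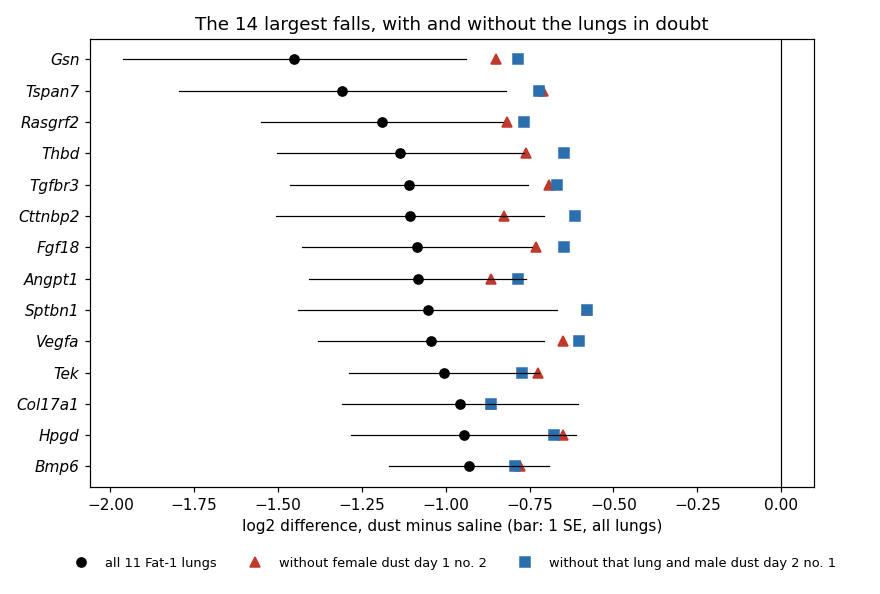
Log2 differences of the 14 genes with the largest falls in all 11 Fat-1 lungs (black, with 1 SE), without female dust day 1 no 2 (red) and without both lungs in doubt (blue). Gsn moves from -1.45 to -0.79 and Tek from -1.01 to -0.77, and all points stay below 0.

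1 dust lung had low values in many inflammatory gene lists, those of neutrophils among them, but not in the alveolar macrophage list. In female dust day 2 no 1 the mean of the neutrophil chemokine list was 0.46 above the saline mean on the log2 scale, against 1.86 to 2.65 in the other 5 dust lungs. The neutrophil list was 0.41 in that lung and 0.93 to 2.27 in the others, and the NF-kappa-B list 0.17 against 0.86 to 1.42. The same lung was within the range of the others for the alveolar macrophage list (0.93 against 0.66 to 1.52), the complement list (1.46 against 1.42 to 2.78) and the fatty acid list (0.46 against 0.45 to 0.75). It was the lowest of the dust lungs for the CC chemokine list (0.24 against 1.14 to 1.87), the monocyte and interstitial macrophage list (0.93 against 0.97 to 2.13) and the pattern recognition list (0.71 against 0.78 to 1.24). It was also the lowest for the interleukin 1 list (0.19 against 1.07 to 1.66) and the immunometabolic list (0.24 against 1.42 to 3.08). The same held for alternative activation (0.04 against 0.46 to 1.55) and interferon genes (0.09 against 0.24 to 1.61). The dendritic cell, lymphoid and T cell lists were lowest in that lung too. It was not marked by any technical measure given above. The genes with the widest spread in dust were Cxcl9, S100a8, Il1b, Arg1, S100a9, Cxcr2, Tnf, Ccl17, Fcgr4 and Isg15, with SDs of log2 values from 1.49 to 2.10. S100a8 went from 491 to 15636 (median 4522) and Cxcl9 from 47.7 to 2236 (median 150.3) across the 6 lungs.

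**Figure D4:**
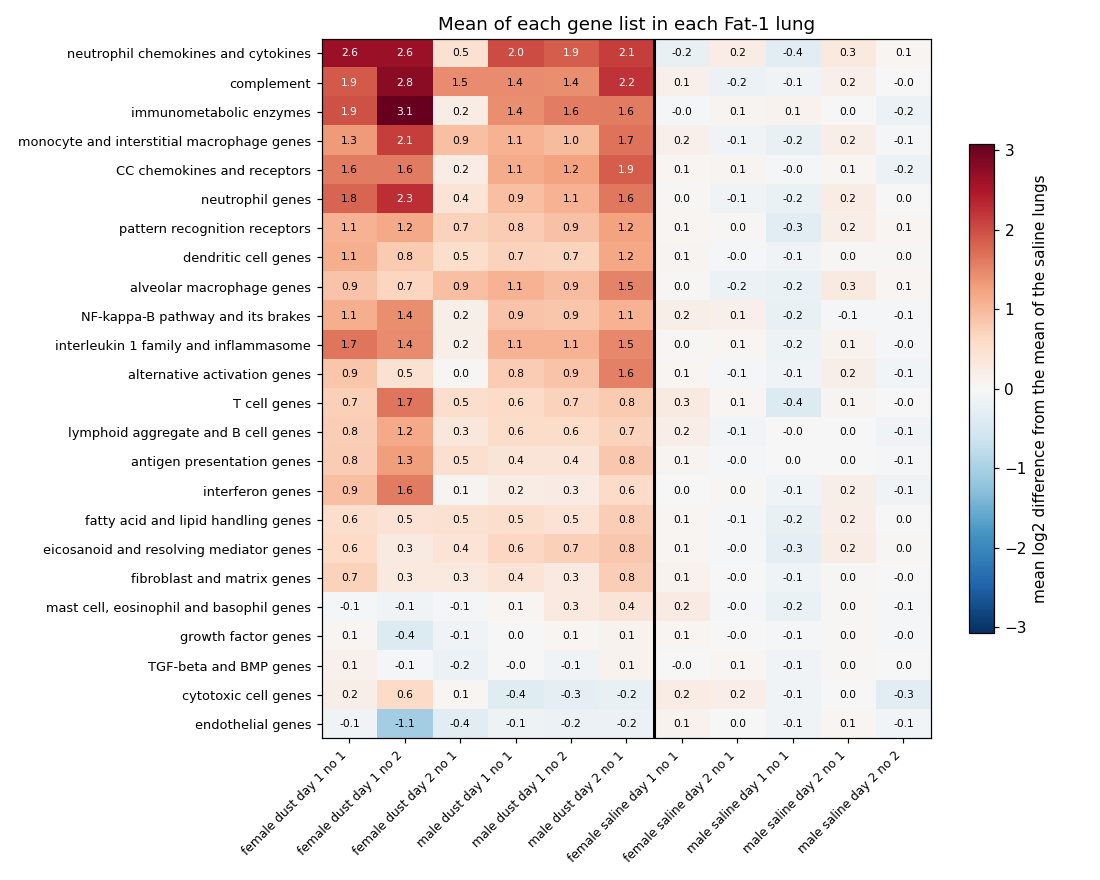
Mean log2 difference from the saline mean for each gene list (rows) in each Fat-1 lung (columns), dust lungs left of the black line and saline lungs right. Female dust day 2 no 1 is pale for neutrophil chemokines (0.5) and dark for complement (1.5), and female dust day 1 no 2 is the bluest for endothelial genes (-1.1).

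No gene passed the threshold for a difference between female and male dust responses. At an unadjusted p under 0.05 there were 15 genes (0% called after adjustment; smallest adjusted p = 0.986 by limma), 14 of them with the lower response in females. The smallest p was for Ccr3, an eosinophil chemokine receptor, whose response was -0.69 in females and 0.78 in males. The difference was -1.48 ± 0.54 (SE), and for Ear6, an eosinophil-associated ribonuclease, it was -1.06 ± 0.41. Across genes the median SE of the difference was 0.53, so a sex difference of 1 log2 unit was within 2 SEs for a typical gene. Between extraction days no gene passed either, with 29 at an unadjusted p under 0.05, 22 of them with a larger response on day 1 (smallest adjusted p = 0.93). Cxcl3 was 5.90 on day 1 and 2.44 on day 2, a difference of 3.46 ± 1.07, and Cxcl2 was 4.24 and 0.83. Cxcl3 was at the floor in female saline day 1 no 1 and male saline day 1 no 1, and above it in every day 2 saline lung. In these day 1 lungs the first readable values were 38.53 and 84.26, so the day 1 response of Cxcl3 depends on the floor. The part of the floor in the day difference of Cxcl3 was not tested. Day 2 had 2 dust lungs, of which 1 was female dust day 2 no 1. Without male dust day 2 no 1, which leaves that lung as the only day 2 dust lung, 20 genes passed.

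The Fat-1 response was also set against that of WT lungs, which had saline and dust groups of their own. WT saline lungs had doubts of label and measure too. For WT male saline day 2 no 2 the title named a female dust lung. WT male saline day 2 no 1 had a saturation message and a binding density of 3.12. In WT female saline day 2 no 1 the positive controls had a geometric mean of 1903.9, against at most 835.9 in the other lungs. In WT, 248 of the 691 genes were called (35.9%). No gene differed in response between genotypes at the threshold, with 21 at an unadjusted p under 0.05 (0% called; smallest adjusted p = 0.999 by limma). The median SE of the difference was 0.37 on the log2 scale. Without the lungs in doubt on technical measures in both genotypes, the median difference over all genes was -0.10, against -0.004 in the main fit. That fit left WT female saline day 1 no 1 as the only WT female saline lung. For Cxcl3 the WT response was 3.95, and the difference from Fat-1 was 0.32 ± 0.87, and for Il1rn it was -0.32 ± 0.95. For Fpr2 the difference was 0.21 ± 0.55, for Alox5ap -0.32 ± 0.37 and for Hpgd 0.30 ± 0.47. These intervals do not show that the genotypes respond alike. The smallest p was for Rnase2a, an eosinophil-associated ribonuclease, with 92.4, 87.5 and 50 in females and 74.5, 95 and 92.9 in males in Fat-1 dust lungs and 20 and 33.4 in females and 20, 20 and 20 in males in Fat-1 saline lungs. Its response was 1.77 ± 0.49 in Fat-1 and -0.28 in WT, a difference of 2.05 ± 0.68 (unadjusted p = 0.00791, adjusted p = 0.999). With the common floor its Fat-1 response was 0.08. Ccl20 differed by 1.07 ± 0.40 and Cd74 by 0.74 ± 0.41, with adjusted p of 0.999 for both.

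**Figure D5:**
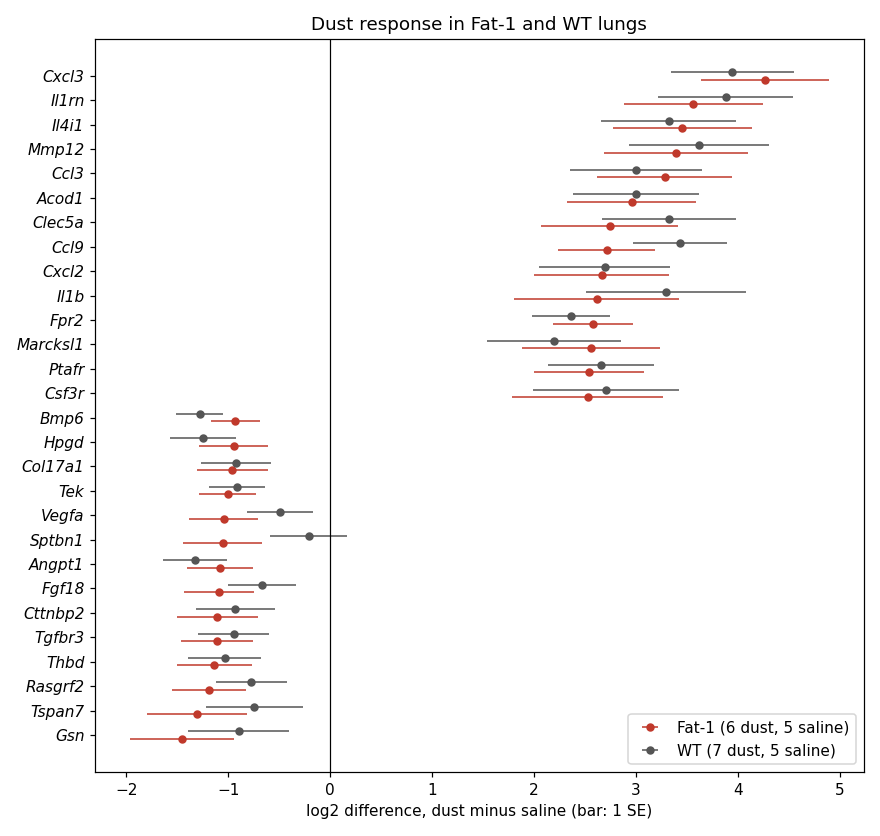
Dust response (log2 difference from saline, with 1 SE) of the 14 highest and 14 lowest called genes of the Fat-1 lungs, in Fat-1 lungs (red, 6 dust and 5 saline) and WT lungs (grey, 7 dust and 5 saline). The genes were chosen for their Fat-1 values, and the bars overlap for most, with Sptbn1 at -1.05 in Fat-1 and -0.21 in WT as the widest gap among the falls.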

How the data were processed

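Total RNA of 23 left lungs was counted on a NanoString nCounter mouse myeloid panel (734 endogenous and 20 housekeeping genes). The deposited values are a signal, probe counts multiplied by 1 factor per lung with a floor of 20, as read from the values themselves and per the file headers. The software and the genes behind the factor were not given in the sources used here. In the Fat-1 lungs the factor ran from 0.9885 to 4.2132. Counts under the floor were hidden, so no count model was fitted. Depth, recovered above the floor, was 110453 to 795975 counts per Fat-1 lung.

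Groups came from the extract code. The 691 endogenous genes above the floor in at least 1 of the 23 lungs were fitted with limma 3.58.1 (R 4.3.3) as means of 8 groups of genotype, sex and exposure on log2(value + 1), two-sided. The dust response is the average of both sexes. Log2 differences are on the log2(value + 1) scale, and the added 1 makes changes of low genes smaller. The floor can act the other way, because a value listed at the floor may hide a higher one in a lung with a high factor. With the common floor, the median difference of all genes tested was 0.11, against 0.29 in the main fit. The size of a difference with floor values in 1 group therefore depends on the floor. Benjamini-Hochberg adjustment ran over all 691 genes, with a threshold of 0.05, and ± is the SE of the fit. Each lung was 1 mouse, so p-values measure the spread between mice. The fit was tested on simulated data. Alternatives changed the scaling, floor, filter, pseudocount (10), blocks, labels and lungs. Lungs in doubt were chosen after seeing the data.

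Named genes were the 14 highest and 14 lowest called genes with the same sign in both sexes, the 4 members of each list with the smallest p, called members of both lipid lists, the 5 smallest p for each difference between responses and the 10 widest in dust. Further list members, among them those not called, were named after their values were seen. Some genes are not reported here. The lungs and lists were chosen with earlier results of these data known. Promoters came from RefSeq (GRCm38.p6), and matching was by symbol. No genome build is given for the probes.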

Additional observations from a re-analysis of the deposited data

Results flagged for a closer look

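Among the 28 genes with the highest and lowest differences, 16 had 1 lung far from the others of its group by Dixon's test, which flags about 1 in 20 groups by chance. In female dust day 2 no 1, Cxcl3 was 134.86, Il1rn 420.85 and Cxcl2 38.36, each the lowest of the dust lungs. Also in that lung, Col17a1 was 44.18, the only dust value above the floor. In female dust day 1 no 2, 10 falling genes were the lowest of the dust lungs: Gsn at 867.5, Tspan7 at 198.56, Rasgrf2 at 96.91, Thbd at 628.76, Tgfbr3 at 92.19, Fgf18 at 20, Sptbn1 at 520.03, Vegfa at 638.22, Tek at 364.02 and Hpgd at 2167.57. In the saline group, male saline day 1 no 1, which had the highest factor, had Clec5a at the floor of 20 and Marcksl1 at 117.97. The part of the control ladder of female dust day 1 no 2 in its low values was not tested.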

How the results depend on the processing

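Of the alternatives for the dust response, these moved the count of called genes from 269 by more than 1.5 times. It was 158 with the replicate block, 165 with groups from the characteristics, 75 without lungs of conflicting labels, 167 for the lungs of day 1 alone, 2 for those of day 2 alone and 142 without both lungs in doubt. Leaving out 1 lung gave 162 to 333. The same replicate number did not pair the lungs: deviations of dust and saline lungs of the same sex, day and number correlated at -0.18, -0.11, 0.26 and 0.09. The common floor gave 2 genes for the sex difference and 1 for the difference from WT. For the day difference, 1 gene was called with groups from the characteristics, 8 without both lungs in doubt and 0 to 20 with 1 lung left out. Scaling changed the split of directions, to 152 higher and 161 lower with median centring and 190 and 71 with housekeeping scaling. Depth limits low genes: 217 of 691 were at the floor in at least 1 Fat-1 lung.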
